A study of Mus musculus with 2 samples.

Results

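The T cell receptor alpha/delta locus of the mouse, with its flanks, was described here from maps of open chromatin in the newborn thymus. The members are all peaks that lie on chromosome 14 between 52400000 and 54320000 (mm10), chosen by position alone. There were 315 such peaks of 154812 in replicate 1 and 331 of 139702 in replicate 2, and no peak crossed either edge. Peaks were found by DNase-seq, in which the enzyme DNase I cuts DNA where it is accessible. The samples were whole thymus of strain B6NCrl at postnatal day 0, wild type as far as the labels say, with males and females pooled. The 2 biological replicates form a single group and carry the same donor label and different biosample labels, so part of the spread between them may be technical. With 1 group there is no condition to compare, and all values describe these libraries without p-values.

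The receptor of most T cells is a heterodimer of an alpha and a beta chain, and a smaller lineage carries a gamma and a delta chain. The delta gene segments lie inside the alpha locus. A thymocyte assembles a variable (V), in delta also a diversity (D), and a joining (J) segment by cutting next to short recombination signal sequences, each made of a heptamer, a spacer and a nonamer. Joining a V alpha to a J alpha removes the DNA between them, including the delta segments. Cutting is known to depend on open chromatin at the segments, which is set up by promoters and by enhancers, of which the alpha enhancer lies after its constant (C) gene and the delta enhancer before its own.

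Each replicate had a list of peaks of 150 bp with a deposited score of 1 to 150, and a list of wider enriched stretches called hotspots with a −log10 q-value capped at 100. The sources used here do not say what the score counts, and it was read only as a rank within its list. The depth of sequencing is unknown. A peak is called shared when it is a replicate 1 peak that overlaps a replicate 2 peak by at least 1 bp. The thymus label was checked by promoters with a shared peak within 1000 bp of a start site. All 12 thymocyte markers had such a peak, Cd3e, Cd4, Rag1 and Ptcra among them. Of 6 thymic epithelium markers 2 had one (Epcam and Ccl25), and Foxn1, Psmb11, Krt5 and Krt8 had none. For myeloid cells 3 of 4 had one (Itgam, Lyz2 and Spi1), and Csf1r had none. For erythroid cells 2 of 4 had one (Gata1 and Epor), and Hbb-bs and Hba-a1 had none. The share of all gene promoters with such a peak is not given here, so these counts have no baseline. In a whole tissue, fewer cells with an open site, less opening per cell and fewer remaining copies of rearranged DNA cannot be told apart.

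The sequences that mark the delta, J and enhancer ends of the locus are shown first, because the highest or best known positions lie there. All sequences are the plus strand of mm10 (GRCm38), read 5′ to 3′ from the RefSeq genome, and the receptor segments are transcribed in that direction except Trdv5. The alpha enhancer position is chr14:54227471-54227685, a peak after Trac with 65 bases before it, and its capitals mark the CRE word TGACGTCA, the TCF/LEF word CTTTGA and the RUNX word TGTGGT on the minus strand. The next peak, chr14:54228236-54228385, has in capitals a match to the CTCF consensus with 1 letter free. CTCF is a DNA-binding protein that holds chromatin loops, and the direction of its sites is known to matter for looping. The peak at chr14:54239136-54239285, in an intron of Dad1, has in capitals a full CTCF match. Between Trdj2 and Trdc, where the delta enhancer is known, the peak is chr14:54137136-54137285, with the E-box word CACCTG in capitals on the minus strand. The peak at the delta D segment Trdd2 is chr14:54122096-54122245, with the MYB word TAACNG, the TCF/LEF word and the E-box word in capitals. The peak before Traj61 is chr14:54152956-54153105, in the stretch where the T early alpha germline promoter is known, with the TCF/LEF word and a CTCF match on the minus strand (1 letter free) in capitals. At Traj49, whose own germline promoter is known, the peak is chr14:54168556-54168705, with the nonamer ACAAAAACC on the minus strand and the heptamer CACAGTG in capitals. The Traj42 peak, chr14:54175596-54175745, has a CTCF match with 1 letter free in capitals.
alpha enhancer position: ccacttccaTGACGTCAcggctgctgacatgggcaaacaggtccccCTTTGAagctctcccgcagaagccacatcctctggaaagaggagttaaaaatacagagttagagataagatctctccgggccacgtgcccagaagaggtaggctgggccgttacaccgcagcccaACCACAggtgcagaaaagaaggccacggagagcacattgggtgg
next peak after the enhancer: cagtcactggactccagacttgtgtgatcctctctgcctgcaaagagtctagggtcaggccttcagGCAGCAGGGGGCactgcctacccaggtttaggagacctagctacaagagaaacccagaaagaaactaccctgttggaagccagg
Dad1 intron: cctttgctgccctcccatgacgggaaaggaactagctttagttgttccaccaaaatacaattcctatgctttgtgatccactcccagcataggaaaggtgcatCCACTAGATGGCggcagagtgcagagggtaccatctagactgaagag
Trdj2 to Trdc: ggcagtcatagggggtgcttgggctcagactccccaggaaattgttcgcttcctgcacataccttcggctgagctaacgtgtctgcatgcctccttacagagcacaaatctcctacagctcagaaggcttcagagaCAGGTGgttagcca
Trdd2: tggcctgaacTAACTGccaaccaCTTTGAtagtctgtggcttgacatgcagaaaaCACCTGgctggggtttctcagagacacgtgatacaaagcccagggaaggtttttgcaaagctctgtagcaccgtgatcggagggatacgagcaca
before Traj61: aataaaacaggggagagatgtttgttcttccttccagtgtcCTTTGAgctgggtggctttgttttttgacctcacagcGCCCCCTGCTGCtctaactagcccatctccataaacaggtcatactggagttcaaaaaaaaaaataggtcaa
Traj49: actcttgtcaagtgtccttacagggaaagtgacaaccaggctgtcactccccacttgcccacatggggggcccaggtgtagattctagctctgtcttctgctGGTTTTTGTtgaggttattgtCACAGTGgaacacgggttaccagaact
Traj42: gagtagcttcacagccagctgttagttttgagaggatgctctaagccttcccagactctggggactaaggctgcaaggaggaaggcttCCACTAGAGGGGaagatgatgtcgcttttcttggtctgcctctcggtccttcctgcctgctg

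The V segments were open at 2 kinds of place, the start and the end, and a few of each are shown because the counts below rest on them. The start peak of Trav1 is chr14:52427776-52427925, with the TCF/LEF word on the minus strand and the E-box word CAGCTG in capitals. Start peaks with a full CTCF match in capitals are chr14:53132516-53132665 at Trav6n-6 and chr14:53538016-53538165 at Trav12-1. For the ends, each sequence runs from inside the segment to the end of the peak, and capitals mark the heptamer CACAGTG on either strand and the E-box word CAGCTG, which the Trav21-dv12 sequence lacks. These are chr14:53364087-53364265 at Trav13n-4, chr14:53554516-53554665 at Trav14-1, chr14:53560228-53560445 at Trav15-1-dv6-1 and chr14:53876696-53876845 at Trav21-dv12.
Trav1 start: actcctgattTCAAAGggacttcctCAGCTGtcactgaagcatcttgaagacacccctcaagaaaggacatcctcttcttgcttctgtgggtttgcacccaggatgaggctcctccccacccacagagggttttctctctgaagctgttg
Trav6n-6 start: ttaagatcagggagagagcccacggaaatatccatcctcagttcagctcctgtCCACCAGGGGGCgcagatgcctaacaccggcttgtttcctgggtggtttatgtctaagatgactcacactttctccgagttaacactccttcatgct
Trav12-1 start: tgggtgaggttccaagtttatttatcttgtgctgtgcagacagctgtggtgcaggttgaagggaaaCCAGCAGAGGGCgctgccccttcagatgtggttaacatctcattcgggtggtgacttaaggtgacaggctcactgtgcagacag
Trav13n-4 end: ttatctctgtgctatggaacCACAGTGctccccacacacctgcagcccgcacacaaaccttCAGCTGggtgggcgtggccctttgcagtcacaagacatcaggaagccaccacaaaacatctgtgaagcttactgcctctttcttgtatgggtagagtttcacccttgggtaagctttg
Trav14-1 end: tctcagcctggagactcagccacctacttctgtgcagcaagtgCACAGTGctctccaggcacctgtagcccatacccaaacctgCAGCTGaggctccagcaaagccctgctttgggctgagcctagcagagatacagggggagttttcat
Trav15-1-dv6-1 end: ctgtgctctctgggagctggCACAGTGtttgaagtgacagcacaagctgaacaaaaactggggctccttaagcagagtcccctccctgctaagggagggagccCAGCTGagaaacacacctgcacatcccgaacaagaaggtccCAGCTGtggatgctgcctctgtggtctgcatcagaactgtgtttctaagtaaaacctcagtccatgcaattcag
Trav21-dv12 end: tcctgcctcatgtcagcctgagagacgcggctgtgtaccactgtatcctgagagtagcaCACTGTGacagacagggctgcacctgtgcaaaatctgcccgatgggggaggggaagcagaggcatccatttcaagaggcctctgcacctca

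The region held many open sites of moderate height. The replicates shared 234 peaks at 185 separate sites, a density of 12.2 per 100 kb, where all main chromosomes together had 3.81. Overlapping peaks count separately in both densities. Peaks with a score written with a decimal point were 23.8% and 30.2% of the region's peaks, against 6.78% and 10.1% of the lists. Of the 234 shared peaks, 57 were such peaks in replicate 1, and leaving such peaks out of both lists left 174. In replicate 1, 74.3% of the region's peaks had a counterpart, against 67.3% of all its peaks. In replicate 2 the share was 73.1% against 74.8%, so sharing in the region was near that of the whole lists. Only 7 of the 234 shared peaks (2.99%) were in the top 10% of scores of both lists, against 11.9% of all shared peaks. The cut-off was a score of 101 in replicate 1 and 104 in replicate 2. Of the 7, 5 lay downstream of Trac, 1 was the start peak of Trav1 and 1 lay at the end of Trav13n-4, the last with 106 and 107, just inside the cut-off. Just outside was a peak 647 bp before the V segment B230359F08Rik, with 106 and 102. Hotspots covered 3.43% of the region in replicate 1 and 3.96% in replicate 2, against 1.72% and 1.84% of the main chromosomes. At the cap were 147 of 294 hotspots in replicate 1, against 45.9% of its list, and 158 of 312 in replicate 2, against 43.5%.

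**Figure D1:**
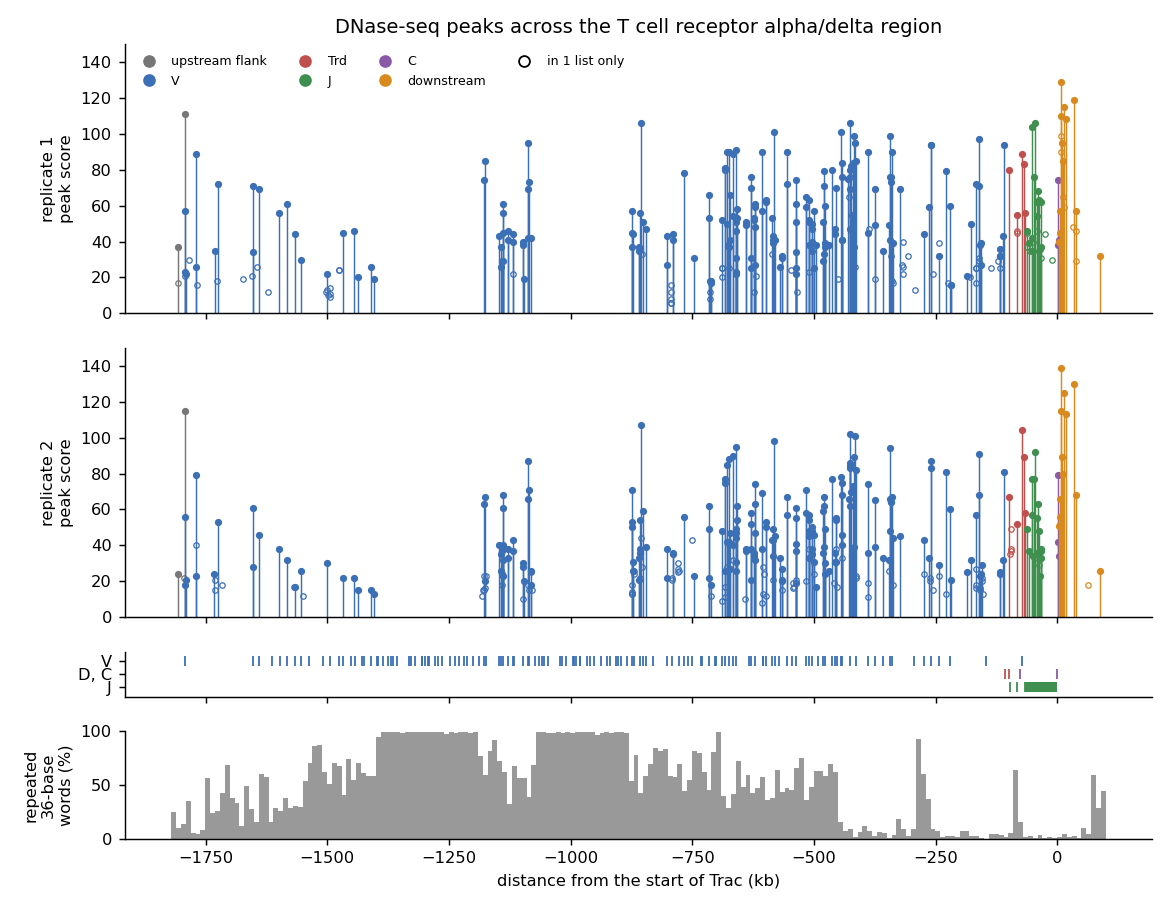
Peak scores (y axis, 1 to 150) of replicate 1 and replicate 2 against the distance from the start of Trac in kb, with the V, D, J and C segments and the share of repeated 36-base words in bins of 10 kb underneath. Filled points with lines overlap a peak of the other list, open points do not. The tallest peaks stand just after Trac, at up to 129 and 139, and the V section has 2 long stretches without shared peaks where nearly all words are repeated.

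Scores of the replicates ran together across the region. Over 132 pairs that overlapped 1 to 1, Spearman's rho was 0.913. The pairs share the libraries and the caller, and the value is a description across peaks. In 100 of the 132 pairs the starts lay within 20 bp, and in 94 the replicate 1 score was the higher. The mean score was 59.5 in replicate 1 and 53.8 in replicate 2. By rank within the list the replicates were nearly even, with 126 of the 234 shared peaks ranked higher in replicate 1 and 108 in replicate 2.

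**Figure D2:**
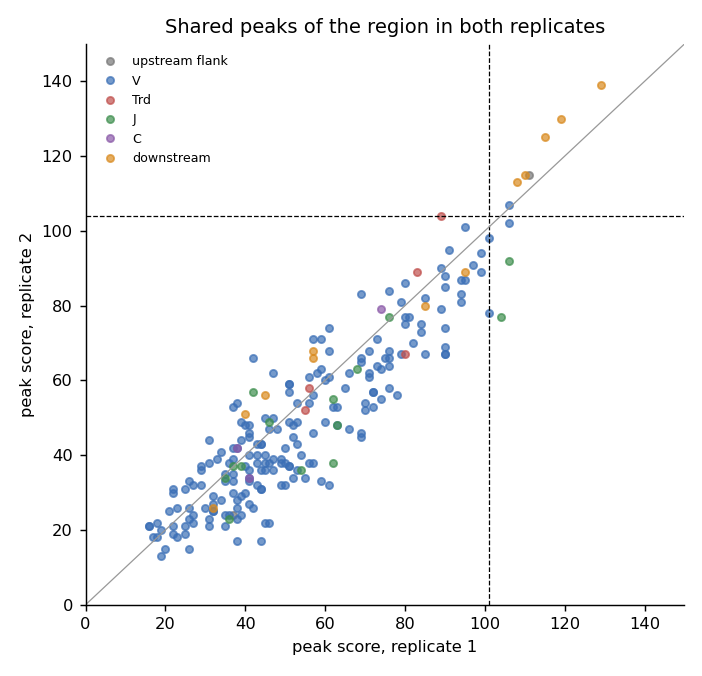
Peak score in replicate 2 (y axis) against replicate 1 (x axis) for the 234 shared peaks, coloured by section, with the line of equal scores and dashed lines at the top 10% of each list, 101 and 104. The 7 peaks in the upper right corner are the strong ones, and 5 of them are downstream of Trac.

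Downstream of Trac stood the strongest group of peaks of the region. The section from the end of Trac to 54320000 held 12 shared peaks, with a median rank above 84.6% of the replicate 1 list and 82.8% of the replicate 2 list. The highest peak of the region, at 54227536 to 54227685, scored 129 and 139 and ranked above 98.15% and 98.97% of the lists. Its midpoint was 3404 bp after the end of Trac, in intergenic sequence. The alpha enhancer is known there, and factors of the CREB/ATF, TCF/LEF and RUNX families are known to bind it. The CRE word (54227480 to 54227487) and the TCF/LEF word (54227517 to 54227522) lay before the called 150 bp, and the RUNX word lay inside it at 54227642 to 54227647, apart from the other two. RUNX was searched only as TGTGGT, so other forms of its site were not looked for. Whether these letters are the known sites was not tested. The hotspot around it, 54226664 to 54228847 in replicate 1, was 2184 bp wide and wider than 99.6% of its list. In replicate 2 it was 2378 bp wide and wider than 99.3% of its list. The section's peak in 1 list only with the highest score also lay inside this hotspot, at 54227936 with 99 in replicate 1, and the replicate 2 hotspot there was at the cap.

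Further peaks followed at growing distance. The next one, at 54228236 to 54228385, scored 110 and 115 and holds the CTCF match with 1 letter free. Peaks at 54229136 (95 and 89) and 54231356 (85 and 80) were lower, and the peak at 54233376 to 54233525 scored 115 and 125. It holds the ETS word GGAAGT and the TCF/LEF word. These sites span the stretch known as the locus control region of the alpha chain, which keeps the locus active in T cells. The peak in the Dad1 intron scored 108 and 113, with its midpoint 15004 bp after Trac. Dad1 is a broadly expressed gene for a subunit of the oligosaccharyltransferase complex, and the peak at its start scored 119 and 130. This peak, at 54253916 to 54254065, was centred 114 bp inside the gene. Abhd4 starts close by on the plus strand, at 54254188, and to which of these genes the peak belongs was not tested. Past Dad1, a peak in an intron of Abhd4 scored 57 and 68, and the last shared peak of the window, at 54307956, scored 32 and 26. Between Trac and the enhancer, 3 lower peaks at 54224696, 54225256 and 54225836 scored 40 to 57 in replicate 1 and 51 to 66 in replicate 2.

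**Figure D3:**
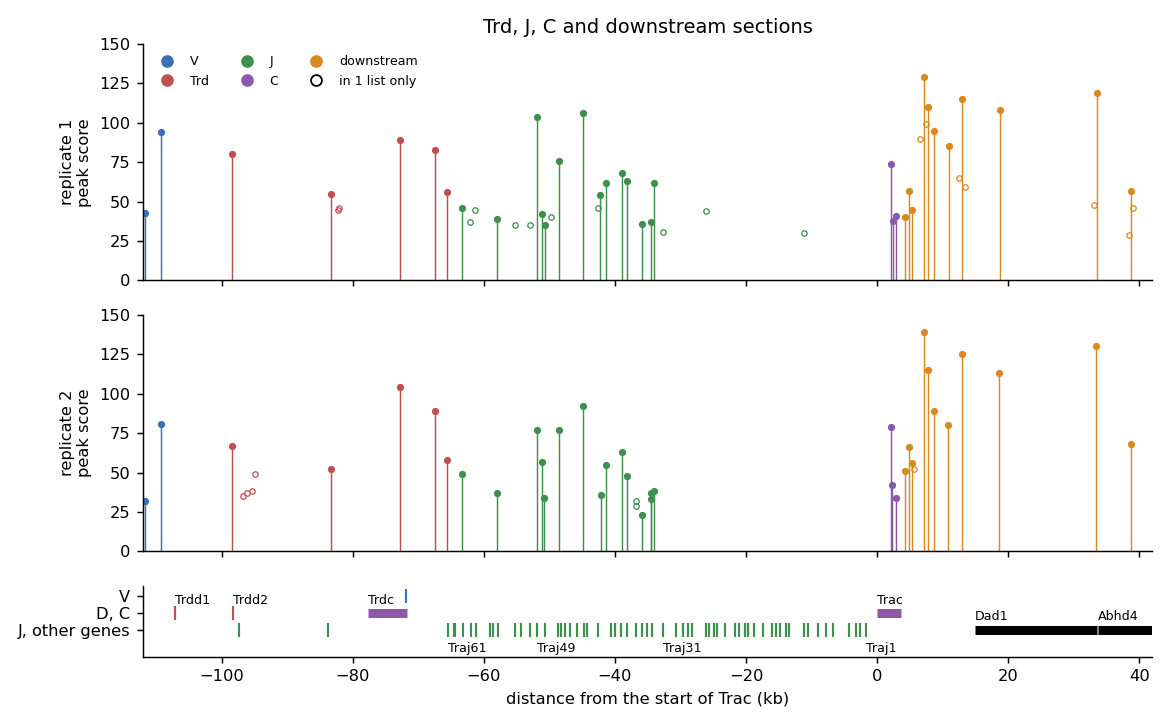
Peak scores of replicate 1 and replicate 2 from just before Trdd1 to Abhd4, against the distance from the start of Trac in kb, with segments and genes underneath (C segments and genes to scale, other segments as ticks). Shared peaks are filled. Shared peaks lie between Traj61 and Traj32, where 21 of 30 segments have one within 1000 bp. The stretch from Traj31 to Traj1 carries only 3 open points, in replicate 1. These stretches are divided at the last shared peak of the J section.

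The section from Trdd1 to the base before Traj61, which holds the delta D, J and C segments, had 5 shared peaks in 41.5 kb. That is 12.04 per 100 kb, near the density of the whole region. No shared peak lay within 1000 bp of Trdd1, and the nearest was 2198 bp before it, at 54111196 to 54111345, with 94 and 81 (named after its value was seen). At Trdd2, the other D segment, the peak was centred 56 bp before the start and scored 80 and 67. The peak in the interval of the delta enhancer, 373 bp after Trdj2, scored 55 and 52. It ranked above 59.1% and 61.4% of the lists, against 98.15% and 98.97% for the alpha enhancer position. It was chosen by its position between Trdj2 and Trdc, and whether it is the delta enhancer was not tested. Trdc, the delta constant gene, had its peak in an exon, 932 bp past the end of the inverted V segment Trdv5, with 89 and 104. This was the highest of the section by mean rank. Replicate 2 had 4 more peaks that replicate 1 lacked, led by one at 54125536 with 49. Replicate 1 had 2 more, led by 54138356 with 46, which also lies between Trdj2 and Trdc.

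Before the J alpha segments, 2 shared peaks lay between Trdv5 and Traj61. The first, 1975 bp before Traj61 where T early alpha is known, scored 83 and 89, and its hotspot was the widest of the section, 374 bp and 574 bp, at the cap in both replicates. The second, centred 35 bp before Traj61, scored 56 and 58. It holds the nonamer ACAAAAACC on the minus strand.

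Shared peaks in the J array lay in its upstream part. Of 60 J alpha segments, 30 lay up to the last shared peak, and 21 of these had a shared peak within 1000 bp of the start. Neighbouring segments can share a peak at this distance. From 300 bp before to 100 bp after the start, 10 of these 30 had one. The other 30, from Traj31 to Traj1, had none. The last shared peak itself set this division, so the absence past it was nearly fixed in advance. Of all 60 J alpha segments, 21 had a shared peak within 1000 bp. The 14 shared peaks of the J section lay in its first 31.5 kb. The next 35.99 kb, from 54186545 to the first Trac intron peak, held 3 peaks of replicate 1 (scores 30 to 44) and none of replicate 2. Only 1.35% of the 36-base words in that gap are repeated, while the 2 longest gaps of the region, 225.8 and 205.8 kb in the V section, have 96.4% and 96.0% repeated words.

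The J peaks sat close to segment starts, at a median of 72 bp, and 9 of 14 lay within 110 bp, a limit not among the planned settings. The highest was at Traj42 (54175596 to 54175745), with 106 and 92. Other high ones lay at Traj49 (104 and 77), Traj47 (76 and 77), Traj37 (68 and 63) and Traj39 (62 and 55). By rank the Traj49 peak stood above 90.95% of the replicate 1 list and 79.18% of the replicate 2 list. The other 9, at Traj58, Traj53, Traj48, Traj40, Traj36, Traj34 and Traj32, scored 35 to 63 in replicate 1 and 23 to 57 in replicate 2. The heptamer CACAGTG, on either strand, was in 6 of 14 J peaks (42.9%), against 4.96% of all 103943 shared peaks on the main chromosomes. The nonamer was in 2 of 14 (14.3%) against 0.283%. In the Traj49 peak the heptamer ends at 54168685, the base before the segment, so the peak covers the signal sequence. A segment carries its signal by nature, so these shares state where the peaks lie. The strongest J peak found in 1 list only lay at Traj40, with 46 in replicate 1.

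Trac, the alpha constant gene, held 3 shared peaks in 3.69 kb, all in introns. They scored 74 and 79 (54222536), 38 and 42 (54222796), and 41 and 34 (54223356). The highest was 2089 bp inside the gene, and no shared peak lay within 1000 bp of its start.

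The V section, from Trav1 to the base before Trdd1, held 198 of the shared peaks, at 149 sites. They scored 16 to 106 in replicate 1 (median 49) and 13 to 107 in replicate 2 (median 43). Most of the peaks clustered at 2 positions along a V segment. A window from 300 bp before to 100 bp after the segment start, where V promoters lie, held 73 peaks (36.9%), while such windows make up 3.19% of the section. A window of 200 bp on either side of the segment end, where the recombination signal lies, held 42 peaks (21.2%) in 3.21% of the section. Both windows were chosen after seeing the data. Another 34 lay elsewhere within 2 kb of a segment, and 49 lay farther away. The median scores were 43.5 and 48.5 for peaks at the ends and 52 and 48 for peaks at the starts.

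**Figure D4:**
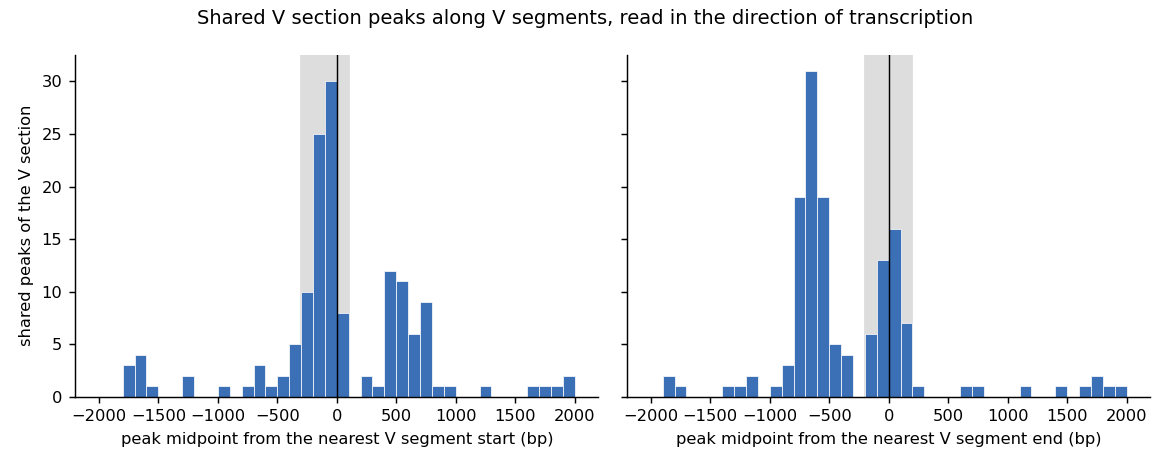
Number of shared V section peaks (y axis) by distance of the peak midpoint from the start (left) or the end (right) of the nearest V segment, in bins of 100 bp up to 2000 bp. Grey bands mark the start and end windows. The left plot is highest in the 200 bp before the start, with 25 and 30 peaks in its bins, and the right plot has a separate rise around 0.

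V promoters are known to lie just before the segments. Of 136 V segments (115 genes and 21 pseudogenes), 53 had a shared peak at the start, 46 genes and 7 pseudogenes. The highest was at Trav1, the V segment farthest from the J segments, with 111 and 115. It lay 78 bp before the segment, in the upstream flank by its midpoint, and the other shared peak of the flank, in an intron of the olfactory receptor gene Olfr1510, scored 37 and 24. Other high start peaks were at Trav3-4 (101 and 78), Trav6n-6 (95 and 87), Trdv2-2 (94 and 87) and Trav14-1 (89 and 90). Trav10d was the lowest, with 26 and 15. V segments of a family share much of their sequence, and so they are not independent of each other.

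End peaks were found at 29 V segments, 28 genes and 1 pseudogene (Trdv3). The highest was at Trav13n-4, with 106 and 107, centred 84 bp after the segment. Next came Trav21-dv12 (99 and 94), Trdv2-2 (94 and 83), Trav15-1-dv6-1 (91 and 95) and Trav13-1 (90 and 88). At 24 segments both start and end carried a shared peak. In 6 of these the end scored higher than the start in both replicates: Trav13n-4, Trav13-1, Trav15-1-dv6-1, Trav4-3, Trav19 and Trav21-dv12. In 10 the start scored higher in both. In the other 8 neither side was higher in both replicates, and ties count here, as at Trdv2-2 with 94 at both sides in replicate 1. The start alone was open at 29 segments, the end alone at 5, and 78 had neither.

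The heptamer of the recombination signal lay inside some end peaks and just before others. It was in 24 of 42 end peaks (57.1%), against 8.22% of start peaks and 4.96% of all shared peaks. In all 24 it began within 7 bp after the end of the segment. In the printed Trav13n-4 and Trav15-1-dv6-1 sequences the heptamer, at 53364107 and 53560248, lies before the called 150 bp, which begin at 53364116 and 53560296. An exact heptamer follows 105 of the 136 V segments, so most V segments without an end peak carry it too: 23 of the 105 had an end peak, and 6 of the 31 others. The E-box word CAGCTG, bound by E proteins such as those encoded by Tcf12 and Tcf3, was in 22 of 42 end peaks (52.4%) against 14.6% of all shared peaks, and CACCTG in 19 (45.2%) against 19.5%. In 18 of 29 segments with an end peak (62.1%) the 200 bp after the segment held CAGCTG, against 41 of 107 (38.3%) without one. Among the 25 segments without an end peak and with under 50% repeated words around the end, 5 did. For CACCTG it was 15 of 29 (51.7%) with an end peak and 51 of 107 (47.7%) without one, and 10 of the 25 (40%). These are matches of letters among related sequences. The limit on repeated words was set only for segments without an end peak. Of the 29 with one, 9 have 50% or more repeated words around the end, so the shares are not matched for repeats.

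Delta V segments are used by the gamma delta lineage. Of 16 V segments with a delta name, 9 had a start peak (56.25%) and 10 an end peak (62.5%). Of all 136 V segments, 53 (38.97%) and 29 (21.3%) had one. The 16 include segments with both an alpha and a delta name, such as Trav15-1-dv6-1 and Trav21-dv12, so they are not delta segments alone. Trdv2-2 scored 94 and 87 at the start and 94 and 83 at the end, and Trdv1 scored 90 and 67 at the start and 39 and 44 at the end. Trdv4, the V segment of the first gamma delta cells of the skin, and Trdv5, the V segment inverted behind Trdc, had neither, though none of the words around their starts are repeated.

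V segments with 3 or more shared peaks within 1000 bp of the start numbered 19. The most, 6, were at Trav15-1-dv6-1, Trav4-4-dv10 and B230359F08Rik. The others were Trav1, Trav14d-3-dv8, Trav6n-6, Trav8n-2, Trav13n-4, Trav10, Trav13-1, Trav9-2, Trav4-3, Trav13-2, Trav6-7-dv9, Trav7-6, Trav16, Trav3-4, Trav21-dv12 and Trdv3. Some peaks of a list overlap each other by steps of 20 bp, so several peaks can be 1 site.

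High V section peaks also lay away from starts and ends. The peak 647 bp before B230359F08Rik, at 53794636, scored 106 and 102. Peaks at 53637796 (101 and 98), 53804116 (95 and 101) and 53802616 (99 and 89) lay 2449 to 3949 bp before the next V start, Trav14-2 or Trav17. The highest V section peak of 1 list only was next to them, at 53804376 with 95 in replicate 1, over a capped hotspot of replicate 2. The peak at 54059896, 14935 bp before Trdv4 in intergenic sequence, scored 97 and 91 and holds a full CTCF match on the plus strand. The widest V hotspots were 1088 bp in replicate 1, at 53877975, and 1356 bp in replicate 2, at 53875723 over Trav21-dv12.

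Repeated sequence and the number of peaks are set side by side here. The V section grew by duplication, and its d and n segments (such as Trav6d-4 and Trav6n-6) are near copies. A 36-base word was called repeated when it recurs elsewhere on the main chromosomes, and 55.4% of words of the V section do, against 1.42% in the J section and none in Trac. In 3 V parts of equal length (561.8 kb), from Trav1 towards Trdd1, there were 20, 54 and 124 shared peaks, with 60.5%, 78.25% and 27.4% repeated words. Start peaks were found at 9 of 38, 16 of 59 and 28 of 38 segments of the parts.

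Start peaks were also counted by the repeated words around each segment. Among 46 segments with under 50% repeated words around the start, 39 had a start peak, 8 of 10 in the first part, 9 of 9 in the second and 22 of 26 in the third. Trdv5, which lies past the V section, is counted in the 46 and in no part. With 50% or more repeated words it was 14 of 90. The 7 of the 46 without one were Trav4-1, Trav6d-5, Trav5-2, Trav15-3, Trav22, Trdv4 and Trdv5. Of these, Trav4-1, Trav5-2, Trav15-3 and Trav22 are pseudogenes. Trav5-2 and Trav15-3 had their nearest shared peaks 415 and 336 bp before the start, outside the limit of 300 bp. How the authors treated reads that fit several places is not given in the sources used here, and the part of repeats in the missing peaks was not tested.

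End peaks were counted the same way. With under 50% repeated words around the end, 2 of 10 segments in the first part had an end peak, 2 of 8 in the second and 16 of 26 in the third, nearest to the D and J segments. With more repeated words, the counts were 0 of 28, 5 of 51 and 4 of 12. The number of segments per part is small, and the difference between parts was not tested.

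**Figure D5:**
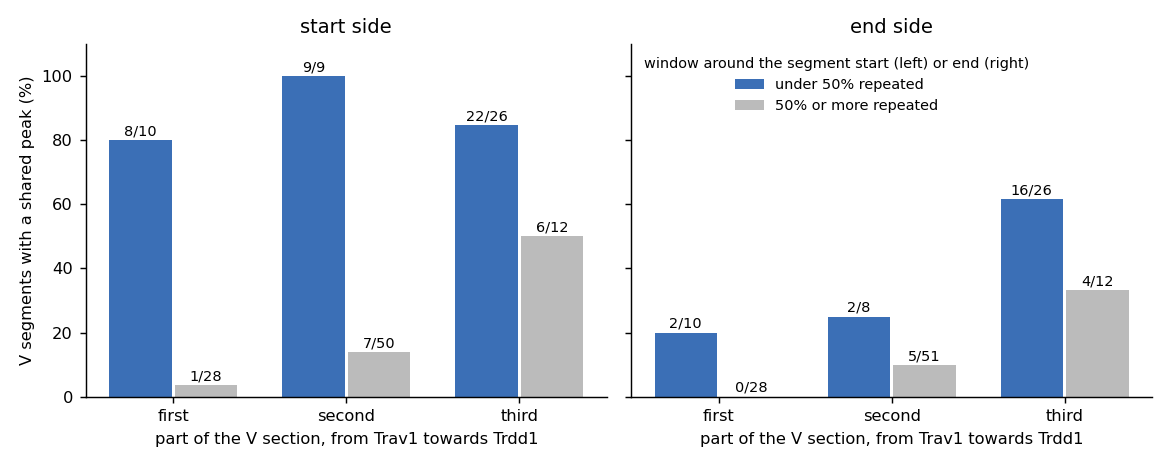
Share of V segments with a shared peak (y axis, %) at the start (left) and at the end (right), by part of the V section and by the share of repeated 36-base words around the start or end; numbers over the bars are segments with a peak of all segments. At the starts the blue bars (under 50% repeated) are high in all parts, 8/10, 9/9 and 22/26, and at the ends they are 2/10, 2/8 and 16/26.

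The share of peaks in repeated sequence was higher here than elsewhere on the chromosome. In replicate 1, 11.1% of the region's peaks had 50% or more repeated words, against 1.06% of the other peaks of chromosome 14, and in replicate 2 it was 14.8% against 1.32%. Shared peaks of the first V part also ranked lower in replicate 2: 15 of 20 had the higher rank in replicate 1, with median ranks above 39.4% and 20.99% of the lists. In the second part 23 of 54 and in the third 71 of 124 had the higher rank in replicate 1.

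CTCF matches at V starts pointed mostly in the direction of transcription. The full consensus was in 11 of 73 start peaks (15.1%), in 0 of 42 end peaks and in 6.35% of all shared peaks. These were at 7 segments, Trav8d-2, Trav6n-6, Trav8n-2, Trav12-1, Trav12-3, Trav3-3 and Trav8-2. All 13 full matches in shared peaks of the region were on the plus strand, at 9 sites. With 1 letter of the consensus free, a setting chosen after seeing the data, 31 of 73 start peaks (42.5%) had a match, against 21.1% of all shared peaks, and 0 of 42 end peaks had one. By segment, 25 of the 53 with a start peak had such a match, 22 on the segment's own strand and 3 (Trav13n-4, Trav13-1 and B230359F08Rik) on the other. V segments of a family share their promoter sequence, so these are not separate cases. Towards the J end, the peak before Traj61 had its match on the minus strand. Those at Traj42, after the enhancer and in the Dad1 intron had theirs on the plus strand. From Trdd1 to the window end, 4 of 34 shared peaks (11.8%) had a match with 1 letter free, against 21.1% of all shared peaks. A full match was in 1 of these 34 (2.94%), against 6.35%. Both shares were below those of all shared peaks.

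Other words, searched on both strands, are given for completeness. The RUNX word TGTGGT was in 62 of 234 peaks of the region (26.5%) against 17.9% of all shared peaks, with 57 of 198 in V (28.8%), 1 of 5 in Trd, 1 of 14 in J and 1 of 12 downstream. The TCF/LEF word was in 35 of 234 (14.96%) against 11.8%, with 28 of 198 in V, 3 of 5 in Trd (at Trdd2, before Traj61 and at Traj61), 1 of 14 in J and 1 of 12 downstream. The ETS word was in 30 of 234 peaks of the region (12.8%) against 18.5%, the GATA word AGATAA in 20 (8.55%) against 5.37% and the MYB word in 44 (18.8%) against 14.5%. Among distal shared peaks (limit 1000 bp) the shares were 21.3% for RUNX, 13.55% for TCF/LEF, 19.2% for ETS, 6.28% for GATA and 15.9% for MYB. Overlapping peaks that hold the same word count separately. The CRE word was in 0 of 234 against 0.764%. It stood in the enhancer hotspot but outside the called 150 bp.

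Peaks in 1 list only were mostly low. They numbered 81 in replicate 1, with a median score of 25, and 89 in replicate 2, with a median of 20. Of these, 17 and 6 overlapped a hotspot of the other replicate. All members overlapped a hotspot of their own replicate. The same shares over all peaks of the lists are not given here, so these overlap counts have no baseline.

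The other receptor loci were counted in the same way. The beta locus on chromosome 6 had 11.1 shared peaks per 100 kb against 12.25 between Trav1 and Trac, and start peaks at 14 of 35 V segments (40%) against 53 of 136 (38.97%). End peaks were found at 8 of 35 (22.9%) against 29 of 136 (21.3%). The gamma locus on chromosome 13 had 6.30 shared peaks per 100 kb, start peaks at 4 of 7 V segments and an end peak at 1 of 7. The loci differ in length, segment number and repeated sequence, and the differences were not tested.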

How the data were processed

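Each of the 2 replicates had a deposited peak list with the authors' score and a deposited hotspot list with the authors' −log10 q-value, capped at 100. Coordinates are mm10, per the labels; for the aligner, caller, thresholds and read depth the entry is "not given in the sources used here". Peaks were counted, merged and compared by overlap of at least 1 bp with Python 3.11.15, numpy 2.4.6, pandas 2.3.3 and scipy 1.17.1, and drawn with matplotlib 3.10.9. Counting was tested on simulated data. Genes came from GENCODE M21 and sequence from RefSeq GRCm38.p6. Motifs were searched on both strands, and 36-base words were counted over the main chromosomes.

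Named were the 10 highest V peaks by mean rank, the 5 highest of each other section, known landmarks, the strongest peak of 1 list only and the widest hotspot per section, and V segments with 3 or more peaks within 1000 bp; other names were chosen after their values were seen. Members and lists were chosen with earlier results of these data known. With 1 group of 2 replicates no test was made, and counts over the lists depend on unknown depth. Alternatives were a stronger set of peaks, other distances, a top 5% cut-off, fewer repeated words and each replicate alone. One further marker list is not reported here.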

Additional observations from a re-analysis of the deposited data

How the results depend on the processing

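Of 88 recomputed values, 68 kept within 1.5 times of the reported count and 20 did not. With only the stronger 50% of each list, shared peaks numbered 114 in the region, 1 in the upstream flank, 91 in V, 7 in J and 1 in C. V and J segments with a peak within 1000 bp then numbered 39 and 15, V starts 32 and V ends 16. With only peaks of under 10% repeated words there were 102 shared peaks in the region and 66 in V, 23 V segments with a peak within 1000 bp, 19 V starts and 9 V ends. Within 500 bp of the start, 14 J segments had a peak, and with the top 5% cut-off 2 peaks were strong. These settings keep fewer peaks or shorter windows by construction. Leaving out 1 replicate leaves all peaks of the other list: 315 to 331 in the region, 3 in the flank, 260 to 285 in V, 7 to 9 in Trd, 17 to 23 in J, 3 in C and 14 to 19 downstream. Strong peaks were then 8 to 12, V segments 62 to 67, J segments 23 to 33, V starts 54 to 57 and V ends 31 to 36. Leaving out peaks whose score is written with a decimal point in the lists, an alternative chosen after seeing the data, left 174 shared peaks in the region. No paired analysis was possible because there is only 1 group. Unknown depth limits what a missing peak shows.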
